A study of Mus musculus with 4 samples.

Results

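The mitochondrial respiratory chain is built from 5 complexes, and its nuclear-encoded subunits were taken here by gene symbol alone, as every listed gene named as an Nduf subunit of complex I, an Sdh subunit of complex II, a Uqcr gene or Cyc1 of complex III, cytochrome c (Cycs), a Cox subunit of complex IV or an Atp5 subunit of complex V. This gave 80 of the 10941 listed genes, and no symbol ending in -ps had to be left out. Complex I contributed 38 subunits, complex II 4, complex III 9, cytochrome c 1, complex IV 11 and complex V 17. The mitochondrially encoded subunits were not analysed here, as 0 genes with an mt- symbol were listed. No measured value was used to choose the 80.

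Levels came from 4 RNA-seq libraries of group 2 innate lymphoid cells (ILC2), tissue-resident lymphocytes that secrete type 2 cytokines, sorted from mouse adipose tissue. All mice were heterozygous for an RFP-cre allele at the Il5 locus, named R5, so recombination is limited to cells that have expressed Il5, and the knockout adds floxed alleles of Rptor, whose product Raptor defines the kinase complex mTORC1. The design calls R5/+ Rptor f/f mice the knockout and R5/+ mice the wild type. The 4 library names and titles give opposite genotypes: libraries named KO carry titles with Rptor +/+ and libraries named WT carry titles with Rptor f/f. The groups are therefore called KO-named (libraries KO1 and KO3) and WT-named (libraries WT1 and WT3), differences are KO-named minus WT-named, and which group lacks Raptor cannot be told from the labels. The labels give no age, sex or fat depot and do not state that libraries are from different animals, so each p-value reflects the variation among these samples alone, part of which may be technical. The study's question is what the loss of mTORC1 signalling does to adipose ILC2.

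Totals were 15258779 and 18856226 counts in KO1 and KO3, and 18151495 and 17868383 counts in WT1 and WT3. The 2 libraries of each group differed from each other far beyond sampling noise, and across genes the common biological coefficient of variation was 1. Rptor itself had 0.971 and 33.9 CPM (counts per 1000000, TMM-scaled) in KO1 and KO3 and 14.5 and 76.8 CPM in WT1 and WT3, so it did not separate the groups (log2 fold change -1.39, SE 1.80, edgeR adjusted p = 0.906; 0.39 without WT3). All 8 ILC2 markers were listed, with 1.37% and 1.11% of counts in KO1 and KO3 and 1.56% and 1.65% in WT1 and WT3. All 8 mast cell markers were listed as well, with 0.915% and 0.716% in KO1 and KO3 and 0.933% and 0.669% in WT1 and WT3. Of 7 fibroblast markers 2 were listed, with summed levels of 824 and 0.117 CPM in KO1 and KO3 and 7.58 and 0.590 CPM in WT1 and WT3. The 2 listed of 6 T cell markers summed to 159 and 101 CPM in KO1 and KO3 and 242 and 109 CPM in WT1 and WT3, with Cd3e at 0 in both KO-named libraries, and the 2 listed of 6 macrophage markers to 29.3 and 32.7 CPM in KO1 and KO3 and 2.02 and 13.0 CPM in WT1 and WT3, with Adgre1 at 0 in WT1. Fasn, the 1 listed of 6 adipocyte markers, had 5.004 and 0 CPM in KO1 and KO3 and 68.3 and 16.3 CPM in WT1 and WT3. Cytosolic ribosomal protein genes took 11.5% and 16.1% of counts in KO1 and KO3 and 7.81% and 8.08% in WT1 and WT3. The part of other cell types and of this shift in composition in the values below was not tested, and in bulk RNA fewer cells of a type and less RNA per cell cannot be told apart.

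Electrons enter the chain from NADH at complex I and from succinate at complex II, pass through ubiquinone to complex III, and are carried by cytochrome c to complex IV, where oxygen is reduced. Complexes I, III and IV pump protons across the inner mitochondrial membrane, and complex V, the ATP synthase, lets them flow back to make ATP. Complexes I, III, IV and V combine nuclear and mitochondrial gene products, whereas complex II is wholly nuclear-encoded. mTORC1 is known to raise mitochondrial gene expression and protein synthesis in other cells, and ILC2 are known to draw on fatty acid oxidation.

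The Ndufb4 family shows where counts of single subunits are uncertain, so its coding starts are printed here. Ndufb4 is an accessory subunit of complex I, and Ndufb4b and Ndufb4c are copies elsewhere in the genome. Only Ndufb4c was compared with Ndufb4 over the whole coding sequence, and Ndufb4b over 16 bases. Over the 390 coding bases of Ndufb4 (chromosome 16), the transcript of Ndufb4c (chromosome 15), which GENCODE lists as a processed pseudogene, was identical, with 0 differing bases. The first 60 of these bases in both, and the first 16 of Ndufb4b (chromosome 19), read as follows in the GRCm38 annotation, from GENCODE transcripts found by symbol for Ndufb4 and Ndufb4c and from the RefSeq promoter window for Ndufb4b, with nothing marked in capitals.
Ndufb4: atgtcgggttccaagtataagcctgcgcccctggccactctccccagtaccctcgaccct
Ndufb4c: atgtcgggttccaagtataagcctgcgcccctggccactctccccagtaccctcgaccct
Ndufb4b: atgtcgggttccaagt
The deposited counts of Ndufb4, Ndufb4c and Cycs were not whole numbers in any of the 4 libraries, and those of Ndufb4b were not whole in 3. Cox7a2 and Uqcrc2 were not whole in 1 library each, and the other 74 subunits had whole counts throughout. The values of the Ndufb4 family are therefore uncertain as to which copy the reads came from.

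Levels per length were computed as TPM (transcripts per 1000000, from the counts and the median length of each gene's protein-coding transcripts), for the 78 subunits with an annotated length. The length rule was chosen after values were seen, and it can move the TPM of a single gene. The median subunit was most abundant in complex IV in every library, and least abundant in complex II in 3 of 4. Summed over its subunits, complex V had 9697 and 9632 TPM in KO1 and KO3 and 8474 and 8127 TPM in WT1 and WT3. It was the highest complex in KO1, KO3 and WT1, whereas in WT3 complex I was highest at 8226 TPM. Complex II was lowest in every library. The median complex IV subunit had 392 and 477 TPM in KO1 and KO3 and 684 and 420.4 TPM in WT1 and WT3. The median complex V subunit had 272 and 338 TPM in KO1 and KO3 and 309 and 269.5 TPM in WT1 and WT3. Complex I lay lower, with medians of 143 and 134 TPM in KO1 and KO3 and 158 and 157 TPM in WT1 and WT3. The order of these 3 medians was the same in every library. Complex III was the one whose place varied, with medians of 38.3 and 316 TPM in KO1 and KO3 and 361 and 228 TPM in WT1 and WT3, so that it ranked lowest of all in KO1. Complex II medians were 107 and 38.3 TPM in KO1 and KO3 and 104 and 46.5 TPM in WT1 and WT3, high in the first library of each group and low in the other.

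**Figure D1:**
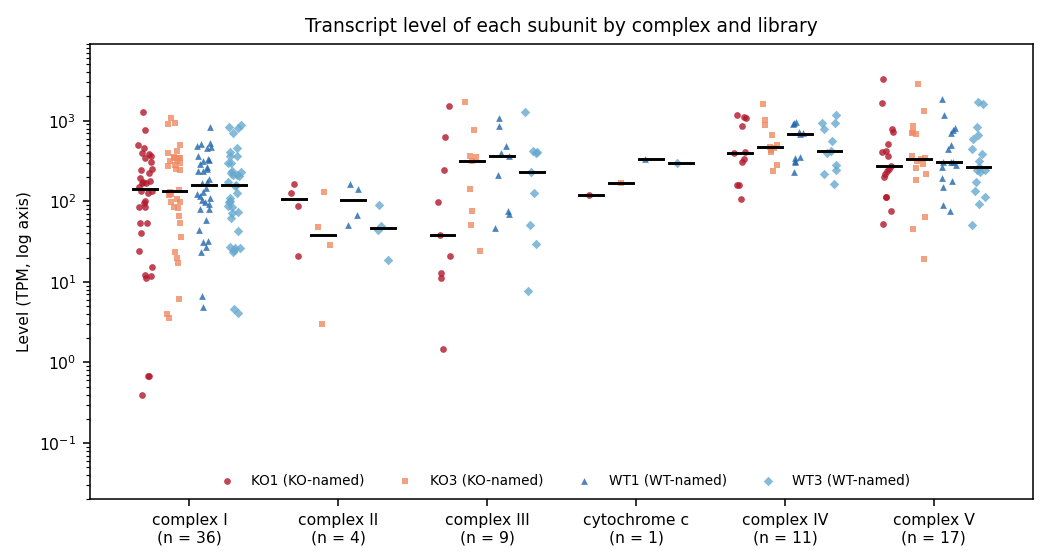
Level in TPM (log axis) of the 78 subunits with an annotated length in the 4 libraries, grouped by complex, with black lines at the medians. The median of complex IV lies highest in every library, and in KO1 the lowest values lie in complexes I and III.

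The core and catalytic subunits, most of which carry a redox centre, were scarcer than the accessory ones in the medians of complexes I and III. The accessory subunits of complex I had medians of 173 and 277 TPM in KO1 and KO3 and 241 and 212 TPM in WT1 and WT3. The 7 nuclear-encoded core subunits, which hold the flavin and the iron-sulfur clusters, had medians of 12.2 and 19.7 TPM in KO1 and KO3 and 32.3 and 42.8 TPM in WT1 and WT3. In complex III, the 4 catalytic and core proteins had medians of 12.1 and 63.0 TPM in KO1 and KO3 and 72.8 and 39.96 TPM in WT1 and WT3, and the 5 small subunits 245 and 363 TPM in KO1 and KO3 and 488 and 414 TPM in WT1 and WT3. The highest single subunit in KO1, KO3 and WT1 was Atp5md, with 3261 and 2893 TPM in KO1 and KO3 and 1882 TPM in WT1, and in WT3 it was Atp5l with 1714 TPM. Across the 78 subunits the ranking by TPM was similar between libraries, with Spearman correlations across genes of 0.867 for the KO-named pair, 0.909 for the WT-named pair and 0.779 to 0.885 across groups. These are descriptions over genes that share their lengths and library preparation.

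The subunits together took about the same share of the counts in both groups. All 80 held 1.22% and 1.52% of counts in KO1 and KO3 and 1.35% and 1.27% in WT1 and WT3, so the groups overlapped. Complex I had 0.353% and 0.460% in KO1 and KO3 and 0.366% and 0.391% in WT1 and WT3. Complex IV had 0.280% and 0.366% in KO1 and KO3 and 0.302% and 0.287% in WT1 and WT3. For both complexes KO3 was the highest library and KO1 the lowest. Complex V had 0.428% and 0.466% in KO1 and KO3 and 0.431% and 0.396% in WT1 and WT3, again overlapping. Complex III had 0.0962% and 0.162% in KO1 and KO3 and 0.136% and 0.109% in WT1 and WT3. Complex II had 0.0392% and 0.0264% in KO1 and KO3 and 0.0429% and 0.0171% in WT1 and WT3. Cytochrome c alone separated the groups, with 0.0278% and 0.0436% in KO1 and KO3, both below the 0.0770% and 0.0694% of WT1 and WT3.

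**Figure D2:**
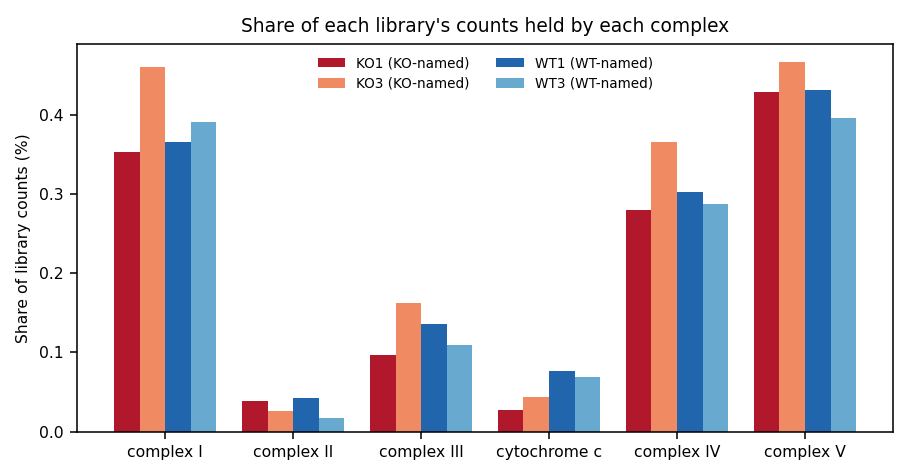
Share of each library's total counts (percent) held by the subunits of each complex, with 1 bar per library and no scaling beyond the library total. Complexes I to V overlap between the groups, and cytochrome c is lower in both KO-named libraries (0.0278% and 0.0436%) than in both WT-named libraries (0.0770% and 0.0694%).

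No subunit passed the test at an adjusted p of 0.05. All 80 passed the filter on low counts, and edgeR's quasi-likelihood test with Benjamini-Hochberg adjustment over 8753 genes called 0 of them, against 0.0% of all tested genes, with a smallest adjusted p of 0.433 both among the subunits and over all genes. DESeq2 called 1 subunit, Ndufa9, against 9.85% of the genes it tested, and limma-voom called 0 against 2.3%. At an unadjusted edgeR p of 0.05 there were 6 subunits (7.5%), against 9.81% of all tested genes, so their share was no higher than the background. There were 5 without Ndufb4b, whose reads may be shared with its copies. All 6 were higher in the KO-named libraries, the direction of 3.47% of tested genes, and 0 were lower, the direction of 6.34%. They were Ndufa12, Ndufa4 and Ndufb4b of complex I, Uqcrb of complex III, Cox5b of complex IV and Atp5md of complex V.

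How the subunits leaned depended on the scaling. With TMM scaling, KO1 and KO3 were both higher than WT1 and WT3 for 30 of 80 subunits (37.5%), against 17.8% of all tested genes, and both lower for 5 (6.25%), against 22.1%. Without Ndufb4b and Ndufb4c, whose reads may be shared among copies, they were 29 and 5 of 78. By library size alone these counts were 20 and 9, against 12.2% and 28.6% of tested genes. In TPM they were 18 and 14 of the 78 subunits with a length, against 11.0% and 30.5% of tested genes with a length. With Ndufb4b and Ndufb4c placed by the library factors alone, the TPM counts were 19 and 15 of 80, against 11.0% and 30.2% of all tested genes. Overlap was also read by the total outside ribosomal proteins and in TPM with the longest transcript, but not with RLE factors or TMM without ribosomal protein genes. Under every scaling so read, 16 of the 78 were higher, against 10.5% of tested genes with a length, and 5 lower, against 22.2%. The 16 were Ndufa4, Ndufa11, Ndufa12, Ndufb4, Ndufb9, Ndufb11, Ndufs6, Ndufs7 and Ndufv3 of complex I, Uqcrb and Uqcrh of complex III, Cox5b and Cox7c of complex IV, and Atp5g2, Atp5md and Atp5o of complex V. The 5 were Ndufa9, Ndufs1, Ndufs4 and Ndufs8 of complex I, and Cycs. The 5 subunits other than Ndufb4b with an unadjusted p of 0.05 or below were among the 16.

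The log2 fold change was larger than its SE for 32 of 80 subunits, against 3416 of 8753 tested genes. The median over the subunits was 0.32, with quartiles of -0.18 and 0.78, against a median of 0.05 and quartiles of -1.11 and 0.90 over all tested genes. A positive value was fitted for 50 of 80 subunits (62.5%), against 51.4% of tested genes, and this number ran from 39 by library size alone to 60 without KO1. By complex the medians were 0.29 for complex I, 0.22 for complex II, -0.07 for complex III, 0.33 for complex IV and 0.41 for complex V, and cytochrome c had -0.71. Scaling by library size alone moved the median of all tested genes to -0.28, and set complex I at -0.08, complex IV at 0.0026 and complex V at 0.11, each above that median, complex II at -0.12, also above it, and complex III at -0.41, below it.

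**Figure D3:**
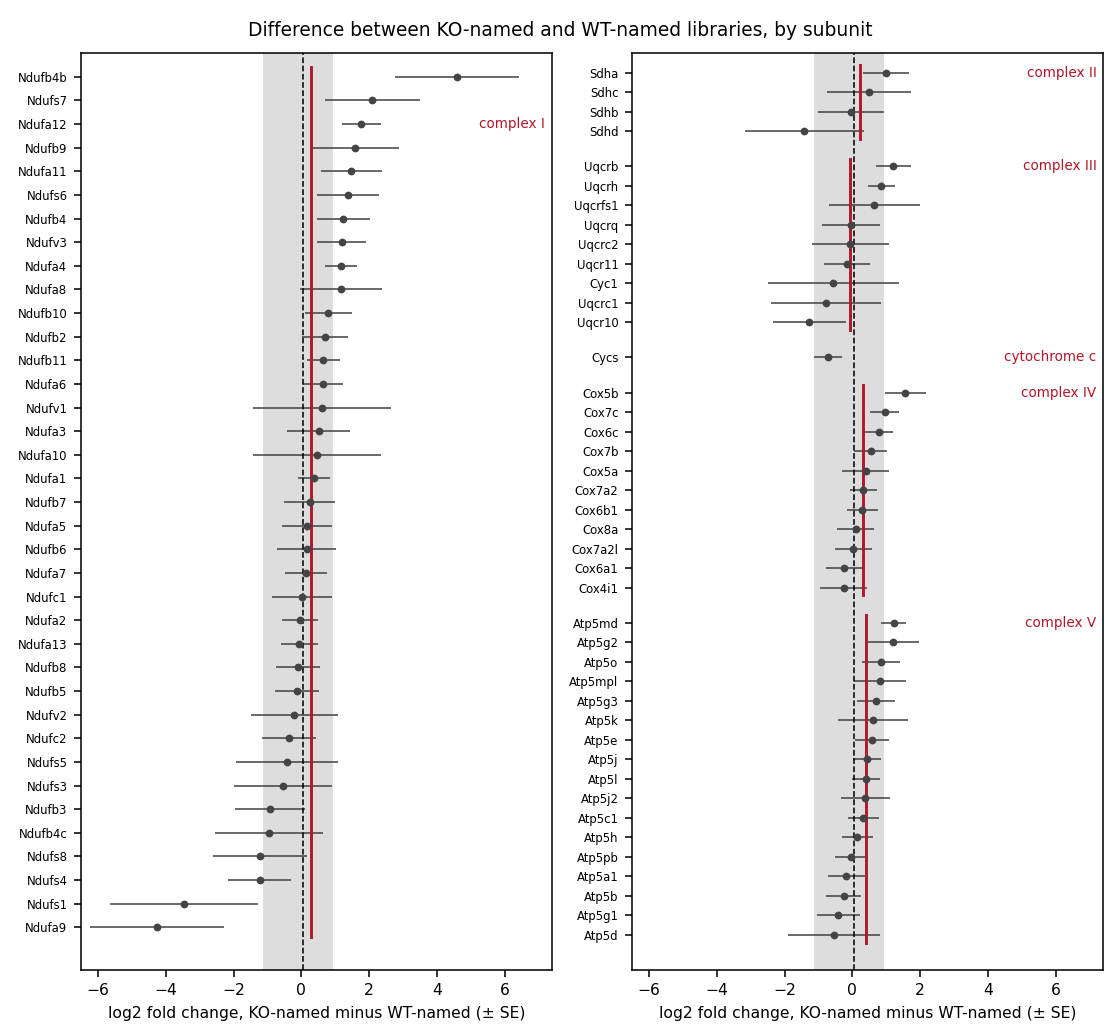
Log2 fold change of single subunits by complex, KO-named minus WT-named, with bars of 1 standard error (edgeR, n = 2 libraries a group). The grey band spans the quartiles of all tested genes (-1.11 to 0.90), the dashed line their median (0.05) and each red line the median of the whole complex; most subunits lie inside the band, and Ndufb4b, Ndufa9 and Ndufs1 lie farthest from 0.

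In complex I, 24 of 38 subunits had a positive log2 fold change and 14 a negative one, none past the adjusted threshold. The 7 core subunits had a median of -0.21 and the 31 accessory subunits one of 0.38. Leaving out KO1 gave complex I a median of 0.62, leaving out KO3 one of -0.03, and leaving out WT3 one of 0.60.

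The core subunits carry electrons from NADH to ubiquinone, and their levels were low and uneven. Ndufv1, which binds the flavin that takes electrons from NADH, had 0.822 and 47.8 CPM in KO1 and KO3 and 5.97 and 25.8 CPM in WT1 and WT3. Ndufv2, an iron-sulfur partner of Ndufv1, had 7.69 and 89.6 CPM in KO1 and KO3 and 48.9 and 63.5 CPM in WT1 and WT3. For both, the 2 KO-named libraries enclosed both WT-named libraries. Ndufs1 (chromosome 1, 63143592 to 63176822, mm10), the largest of these iron-sulfur subunits, had 0.373 and 2.41 CPM in KO1 and KO3 and 10.9 and 19.8 CPM in WT1 and WT3. Its groups did not overlap, and its log2 fold change was -3.45 (SE 2.18, edgeR adjusted p = 0.702), running from -5.35 without KO3 to -2.66 without KO1.

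Further along the core, Ndufs7 lies next to the site where ubiquinone is reduced. Ndufs7, which carries the last iron-sulfur cluster before ubiquinone, had 63.0 and 84.3 CPM in KO1 and KO3 and 31.4 and 2.84 CPM in WT1 and WT3. It was the one core subunit higher in both KO-named libraries (log2 fold change 2.10, SE 1.41, adjusted p = 0.731 in edgeR), at 4.67 without WT1 and 1.31 without WT3. Ndufs8, another iron-sulfur subunit, had 45.0 and 5.46 CPM in KO1 and KO3 and 56.4 and 61.3 CPM in WT1 and WT3. Ndufs3, a core subunit without a redox centre, had 36.2 and 16.4 CPM in KO1 and KO3 and 20.9 and 55.1 CPM in WT1 and WT3, and overlapped. Ndufs1, Ndufs7 and the subunits given above by their CPM alone were chosen after their values were seen.

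Among the accessory subunits Ndufa9 had the most negative fold change of all 80. Ndufa9 (Entrez 66108, chromosome 6, 126821863 to 126849144, mm10), which sits beside the ubiquinone-binding region, had 0.448 and 4.34 CPM in KO1 and KO3 and 66.2 and 25.2 CPM in WT1 and WT3. Both KO-named libraries were far below both WT-named libraries, and its log2 fold change was -4.25 (SE 1.98, edgeR adjusted p = 0.525). DESeq2 gave -4.17 with an adjusted p of 0.0449. Leaving out 1 library at a time gave -6.65 without KO3 and -3.38 without KO1. Ndufs4, an accessory subunit of the peripheral arm whose loss in mice causes an encephalopathy, had 39.4 and 43.4 CPM in KO1 and KO3 and 94.4 and 99.95 CPM in WT1 and WT3. Its log2 fold change was -1.23 (SE 0.926, edgeR adjusted p = 0.776), and it was chosen after its values were seen.

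Ndufa12 (Entrez 66414, chromosome 10, 94199035 to 94221440, mm10), an accessory subunit of the peripheral arm, had 257 and 307 CPM in KO1 and KO3 and 63.2 and 102 CPM in WT1 and WT3. Both KO-named libraries were higher than both WT-named libraries (log2 fold change 1.77, SE 0.584, unadjusted p = 0.0124 and adjusted p = 0.433 in edgeR). Ndufa4 (Entrez 17992, chromosome 6, 11900372 to 11907450, mm10), named for complex I but since found with complex IV, had 501 and 448 CPM in KO1 and KO3 and 149.7 and 272 CPM in WT1 and WT3. Its groups did not overlap either (log2 fold change 1.17, SE 0.480, unadjusted p = 0.0343 and adjusted p = 0.464 in edgeR). Counting Ndufa4 with complex IV gave medians of 0.24 for complex I and 0.36 for complex IV.

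Ndufa1 and Ndufa13 were, with Ndufa4, the most abundant complex I subunits by CPM, and neither separated the groups under every scaling. Ndufa1, a small membrane-arm subunit needed for assembly, had 271 and 347 CPM in KO1 and KO3 and 216 and 260.2 CPM in WT1 and WT3 (log2 fold change 0.38, SE 0.480, adjusted p = 0.905 in edgeR). Its groups did not overlap in TMM-scaled CPM but overlapped in TPM and by library size. Ndufa13, also known as GRIM-19, had 181 and 362 CPM in KO1 and KO3 and 204 and 362 CPM in WT1 and WT3 (log2 fold change -0.06, SE 0.546, adjusted p = 0.987 in edgeR). The lower library of each group lay near the lower one of the other, and the higher ones were level.

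Ndufb4b had the most positive fitted value, on very few reads. Its level was 3.59 and 1.82 CPM in KO1 and KO3 and 0 and 0.215 CPM in WT1 and WT3, from 48, 31, 0 and 4 counts in the same order. It passed the filter on low counts only through the KO-named libraries and its reads may be shared with its copies, so its log2 fold change of 4.59 is uncertain (SE 1.82, edgeR unadjusted p = 0.0296, adjusted p = 0.443). A count of 0 in WT1 allows up to 0.138 CPM, the level of 3 counts. Ndufb4 itself had 143 and 122 CPM in KO1 and KO3 and 61.8 and 50.1 CPM in WT1 and WT3, while Ndufb4c had 0.373 and 2.52 CPM in KO1 and KO3 and 3.54 and 2.09 CPM in WT1 and WT3. Ndufb4 and Ndufb4c were chosen after their values were seen. Without these 3 genes the complex I median was 0.24.

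Complex II, which is also succinate dehydrogenase of the citric acid cycle, gave no common direction. Sdha, the flavin-bearing subunit, had 253 and 218 CPM in KO1 and KO3 and 182 and 56.0 CPM in WT1 and WT3 (log2 fold change 0.99, SE 0.670, adjusted p = 0.735 in edgeR). Sdhb, the iron-sulfur subunit, had 84.3 and 50.2 CPM in KO1 and KO3 and 99.1 and 40.2 CPM in WT1 and WT3 (log2 fold change -0.05, SE 0.975, adjusted p = 0.993 in edgeR). Sdha was higher in both KO-named libraries by CPM but overlapped in TPM and by library size, and Sdhb overlapped. Of the membrane anchors, Sdhc had 87.6 and 21.1 CPM in KO1 and KO3 and 25.7 and 51.5 CPM in WT1 and WT3 (log2 fold change 0.49, SE 1.25, adjusted p = 0.960 in edgeR). Sdhd had 22.1 and 3.34 CPM in KO1 and KO3 and 51.8 and 16.5 CPM in WT1 and WT3 (log2 fold change -1.42, SE 1.76, adjusted p = 0.905 in edgeR). With 1 library left out, Sdha ran from 0.44 without WT3 to 2.05 without WT1, and Sdhd from -3.33 without KO1 to -0.41 without WT1. KO1 was above KO3 for all 4 subunits. The median of the complex was 0.68 without KO3 and -0.66 without KO1.

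Complex III oxidises ubiquinol and reduces cytochrome c, and here 3 of its 9 subunits had a positive log2 fold change and 6 a negative one. All 9 were lower in KO1 than in KO3, against 4124 of 8753 tested genes, and the median was -1.13 without KO3 and 0.22 without KO1. Of the catalytic subunits, Cyc1, the cytochrome c1 haem protein, had 7.92 and 15.7 CPM in KO1 and KO3 and 30.9 and 3.97 CPM in WT1 and WT3. Uqcrfs1, the Rieske iron-sulfur protein, had 13.1 and 93.6 CPM in KO1 and KO3 and 39.3 and 28.6 CPM in WT1 and WT3. The groups overlapped for both. Uqcrc1, a core protein, had 0.672 and 68.6 CPM in KO1 and KO3 and 70.8 and 47.8 CPM in WT1 and WT3, so that KO1 stood apart from the other 3 libraries. Its partner Uqcrc2 had 38.4 and 54.7 CPM in KO1 and KO3 and 55.1 and 42.3 CPM in WT1 and WT3, with no such gap. These 4 subunits were chosen after their values were seen.

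Among the small subunits of complex III, Uqcrb and Uqcrh were higher in the KO-named libraries. Uqcrb (Entrez 67530, chromosome 13, 66900576 to 66905350, mm10), a small matrix-side subunit, had 285 and 376 CPM in KO1 and KO3 and 133 and 152 CPM in WT1 and WT3. The groups did not overlap (log2 fold change 1.21, SE 0.510, unadjusted p = 0.0382 and adjusted p = 0.474 in edgeR). Uqcrh, the hinge protein next to cytochrome c1, was the most abundant with 609 and 749 CPM in KO1 and KO3 and 322 and 428 CPM in WT1 and WT3. Its groups did not overlap under any scaling read for overlap, and its log2 fold change was 0.86 (SE 0.410, edgeR adjusted p = 0.543). Uqcr10, a small membrane subunit, had 7.69 and 142 CPM in KO1 and KO3 and 233 and 128 CPM in WT1 and WT3 (log2 fold change -1.27, SE 1.08, adjusted p = 0.831 in edgeR). As for Uqcrc1, KO1 was the one low library, and the log2 fold change of Uqcr10 was -0.34 without it and -4.55 without KO3.

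**Figure D4:**
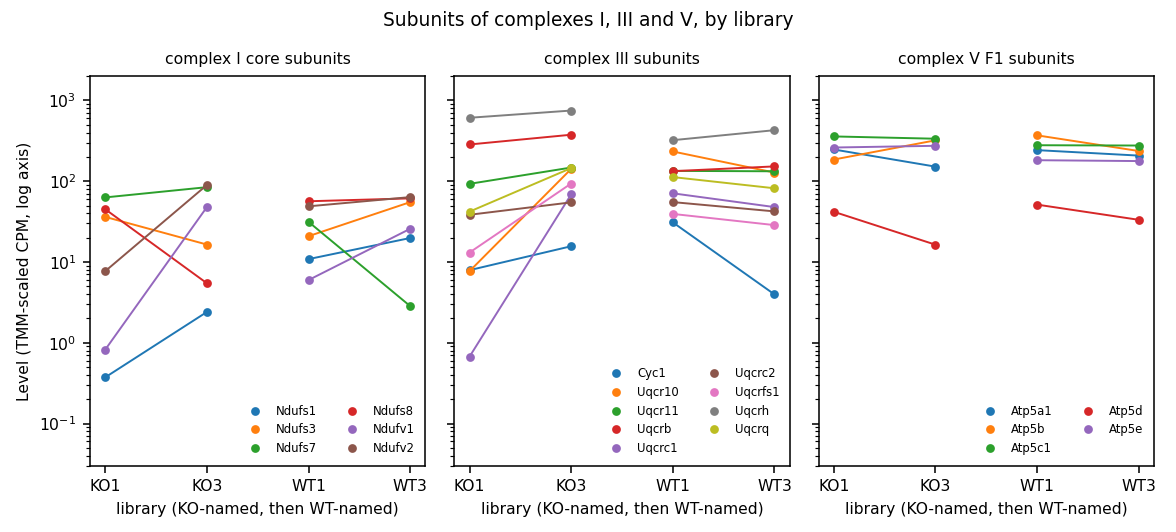
Level (TMM-scaled CPM, log axis) of 6 core subunits of complex I, all complex III subunits and the F1 subunits of complex V in each library, with lines joining the 2 libraries of a group. The complex I core subunits run from 0.373 to 63.0 CPM in KO1 alone, all 9 complex III subunits are lower in KO1 than in KO3, and the F1 subunits other than Atp5d stay between 151 and 369 CPM.

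Cytochrome c is the mobile carrier between complexes III and IV and a trigger of apoptosis when released. It was lower in the KO-named libraries under every scaling read for overlap. Cycs (Entrez 13063, chromosome 6, 50562563 to 50566569, mm10) had 317 and 482 CPM in KO1 and KO3 and 642 and 665 CPM in WT1 and WT3. The groups did not overlap, but the difference did not pass the test (log2 fold change -0.71, SE 0.416, adjusted p = 0.666 in edgeR). In TPM, Cycs had 119 and 169 in KO1 and KO3 and 333 and 299.5 in WT1 and WT3. The log2 fold change stayed negative with each library left out, at -0.43 without KO1 and -1.06 without KO3. Cycs has processed pseudogenes, and its deposited counts were fractional in all 4 libraries.

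The Cycs promoter is shown because Cycs is the carrier of the chain and lay lower in the KO-named libraries under every scaling read for overlap. A further reason is that in the rat Cycs is a known target of the transcription factors NRF1 and CREB. The window runs from 250 bases before to 50 after the annotated start, chr6:50566520-50566819 on the minus strand of GRCm38.p6 (RefSeq). The capitals mark a match to the NRF1 core GCANGCGC and one to the cyclic AMP response element TGACGTCA.
Cycs: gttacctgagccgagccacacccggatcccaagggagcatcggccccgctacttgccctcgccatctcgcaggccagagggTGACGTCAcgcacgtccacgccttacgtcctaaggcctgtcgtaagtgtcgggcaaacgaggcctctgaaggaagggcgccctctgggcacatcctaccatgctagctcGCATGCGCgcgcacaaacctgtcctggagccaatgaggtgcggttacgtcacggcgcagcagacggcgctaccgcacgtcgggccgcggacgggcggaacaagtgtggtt
RefSeq promoters of the same length were matched for 66 of the 80 subunits, and motifs were searched on both strands. The NRF1 core was present in 28 (42.4%), against 22.6% of the 7072 tested genes with a promoter and 10.8% of all 27025 genes with a promoter. The ETS core CCGGAAG, the recognition letters of the NRF2 (GABP) family, was present in 17 (25.8%), against 21.7% of tested genes and 9.93% of all. The YY1 core AAGATGG was present in 11 (16.7%), against 8.94% of tested genes and 7.28% of all. The cyclic AMP response element was present in 5 (7.58%), against 3.83% of tested genes and 2.03% of all, and the 5 were Ndufa10, Ndufa11, Ndufb2, Uqcrfs1 and Cycs. The median log2 fold change was 0.37 for the 28 subunits with the NRF1 core and 0.34 for the 38 without it. It was 0.16 with and 0.39 without the ETS core, 0.38 with and 0.33 without the YY1 core, and 0.65 with and 0.32 without the cyclic AMP response element. A match is a description of the letters and not evidence of binding.

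In complex IV, cytochrome c oxidase, 9 of 11 nuclear subunits had a positive log2 fold change, against 51.4% of tested genes. By TMM-scaled CPM 5 were higher in both KO-named libraries, against 17.8% of tested genes. By library size 2 were, against 12.2%, and in TPM 2 were, against 11.0%. Lower in both KO-named libraries were 0 by TMM-scaled CPM, 1 by library size and 3 in TPM, against 22.1%, 28.6% and 30.2%. The catalytic subunits of this complex are mitochondrially encoded, and the nuclear ones surround them. Cox5b (Entrez 12859, chromosome 1, 36691487 to 36693388, mm10), a zinc-binding subunit on the matrix side, had 216 and 259.9 CPM in KO1 and KO3 and 88.8 and 72.1 CPM in WT1 and WT3. Both KO-named libraries were over 2-fold above either WT-named library (log2 fold change 1.56, SE 0.607, unadjusted p = 0.0271 and adjusted p = 0.440 in edgeR). Cox7c, a small membrane subunit, had 534 and 498 CPM in KO1 and KO3 and 228 and 307 CPM in WT1 and WT3 (log2 fold change 0.95, SE 0.430, adjusted p = 0.509 in edgeR). Cox6c, the most abundant of the 11, had 578 and 885 CPM in KO1 and KO3 and 348 and 507 CPM in WT1 and WT3 (log2 fold change 0.78, SE 0.426, adjusted p = 0.630 in edgeR). Cox7c was separated under every scaling read for overlap, whereas Cox6c overlapped in TPM and by library size.

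The other complex IV subunits include those that have tissue-specific partners in mammals. Cox4i1, the ubiquitous form of the largest nuclear subunit, had 67.1 and 189 CPM in KO1 and KO3 and 157 and 150.0 CPM in WT1 and WT3, and the lowest log2 fold change of the complex, -0.26 (SE 0.704, edgeR adjusted p = 0.964). Cox6a1, the non-muscle form of subunit VIa, had 150.4 and 249 CPM in KO1 and KO3 and 246 and 229 CPM in WT1 and WT3 (log2 fold change -0.25, SE 0.531, adjusted p = 0.951 in edgeR). For both, KO1 was the low library, and the fold change turned positive without it, to 0.31 for Cox4i1 and 0.08 for Cox6a1. Cox7a2, the non-muscle form of subunit VIIa, had 481 and 534 CPM in KO1 and KO3 and 376 and 435 CPM in WT1 and WT3 (log2 fold change 0.33, SE 0.407, adjusted p = 0.905 in edgeR). Its KO-named libraries were the higher ones in CPM and the lower ones in TPM.

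Cox7a2l, which joins complexes III and IV into supercomplexes, had 151 and 242 CPM in KO1 and KO3 and 214 and 172 CPM in WT1 and WT3 (log2 fold change 0.03, SE 0.550, adjusted p = 0.994 in edgeR). Cox6b1, which faces the intermembrane space, had 453 and 296 CPM in KO1 and KO3 and 288 and 323 CPM in WT1 and WT3 (log2 fold change 0.29, SE 0.456, adjusted p = 0.927 in edgeR). Cox8a, the ubiquitous form of the smallest subunit, had 183 and 254 CPM in KO1 and KO3 and 245 and 164 CPM in WT1 and WT3 (log2 fold change 0.10, SE 0.536, adjusted p = 0.982 in edgeR). All 3 overlapped between the groups, and each of these fold changes turned negative by library size alone. The partners Cox4i2, Cox6a2, Cox6b2, Cox7a1 and Cox8b were not analysed here.

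In complex V, the ATP synthase, 12 of 17 subunits had a positive log2 fold change, against 51.4% of tested genes. By TMM-scaled CPM 8 were higher in both KO-named libraries, against 17.8% of tested genes. By library size 5 were, against 12.2%, and in TPM 4 were, against 11.0%. Lower in both KO-named libraries were 0 by TMM-scaled CPM, 0 by library size and 2 in TPM, against 22.1%, 28.6% and 30.2%. The 5 subunits of the catalytic F1 head had a median log2 fold change of -0.18, the 3 genes of the proton-carrying c ring 0.69, the 4 of the peripheral stalk 0.29 and the 5 others 0.61. In the F1 head, Atp5b, the catalytic beta subunit, had 185 and 320.4 CPM in KO1 and KO3 and 369 and 236 CPM in WT1 and WT3, and Atp5c1, the rotating gamma subunit, had 358 and 335 CPM in KO1 and KO3 and 279 and 276 CPM in WT1 and WT3. The lowest fold change of the complex was that of Atp5d, the delta subunit of the central stalk, with 41.8 and 16.4 CPM in KO1 and KO3 and 51.3 and 33.3 CPM in WT1 and WT3 (log2 fold change -0.54, SE 1.36, edgeR adjusted p = 0.960; -1.36 without KO1, -0.021 without KO3). Atp5d and Atp5b overlapped between the groups, and Atp5b and Atp5c1 were chosen after their values were seen.

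Atp5md had the smallest p of all 80 subunits. It encodes DAPIT, a small membrane subunit that links ATP synthase dimers (Entrez 66477, chromosome 19, 47083471 to 47090647, mm10). Its level was 1004 and 956 CPM in KO1 and KO3 and 421 and 418 CPM in WT1 and WT3, and the libraries within each group were almost level. The log2 fold change was 1.22 (SE 0.375, edgeR unadjusted p = 0.00821, adjusted p = 0.433), and it ran from 1.20 to 1.29 with each library left out. By library size alone it was 0.89. Atp5l, subunit g of the membrane sector, had 769 and 648 CPM in KO1 and KO3 and 400.3 and 663 CPM in WT1 and WT3 (log2 fold change 0.41, SE 0.415, adjusted p = 0.870 in edgeR). Atp5j, coupling factor 6 of the peripheral stalk, had 481 and 565 CPM in KO1 and KO3 and 354 and 419 CPM in WT1 and WT3 (log2 fold change 0.44, SE 0.410, adjusted p = 0.860 in edgeR). Atp5l overlapped between the groups, and Atp5j overlapped in TPM.

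The c ring, which turns as protons pass, is encoded by 3 genes whose mature proteins are identical. Atp5g1 had 174 and 111 CPM in KO1 and KO3 and 127 and 254 CPM in WT1 and WT3 (log2 fold change -0.42, SE 0.630, adjusted p = 0.923 in edgeR), and its log2 fold change was 0.23 without WT3. Atp5g2 had 158 and 135 CPM in KO1 and KO3 and 82.0 and 44.5 CPM in WT1 and WT3 (log2 fold change 1.21, SE 0.759, adjusted p = 0.700 in edgeR). Atp5g3 had 252 and 191 CPM in KO1 and KO3 and 137 and 138 CPM in WT1 and WT3 (log2 fold change 0.69, SE 0.558, adjusted p = 0.815 in edgeR).

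The difference between the group means lay between those within the KO-named and the WT-named pair, over the subunits and over all tested genes. A mean of 2 libraries varies less than a single library, so these are unlike measures. Similar values therefore do not show that the groups are alike. Over the 80 subunits the median absolute log2 difference was 0.61 between the group means, 0.643 between KO1 and KO3 and 0.469 between WT1 and WT3. Over all tested genes the same values were 0.991, 1.29 and 0.906, so the subunits varied less than the typical gene in each of the 3. Complexes IV and V were the least variable within the WT-named pair, at 0.309 and 0.242, and the complex I core was among the most variable, at 1.73 between KO1 and KO3 and 1.38 between WT1 and WT3. KO1 and KO3 differed by over 2-fold for 26 of 80 subunits (32.5%), against 58.0% of tested genes, and WT1 and WT3 for 16, against 46.4%. KO1 was below KO3 for 56 of 80 subunits, including all 9 of complex III, 9 of 11 of complex IV and 28 of 38 of complex I. The same held for 4124 of 8753 tested genes and for 74 of 84 tested cytosolic ribosomal protein genes. KO1 is also the library with the fewest counts and with the fibroblast transcripts given above, and the part of either was not tested. Leaving out 1 library at a time changed the sign of the fold change for 37 of the 80 subunits.

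**Figure D5:**
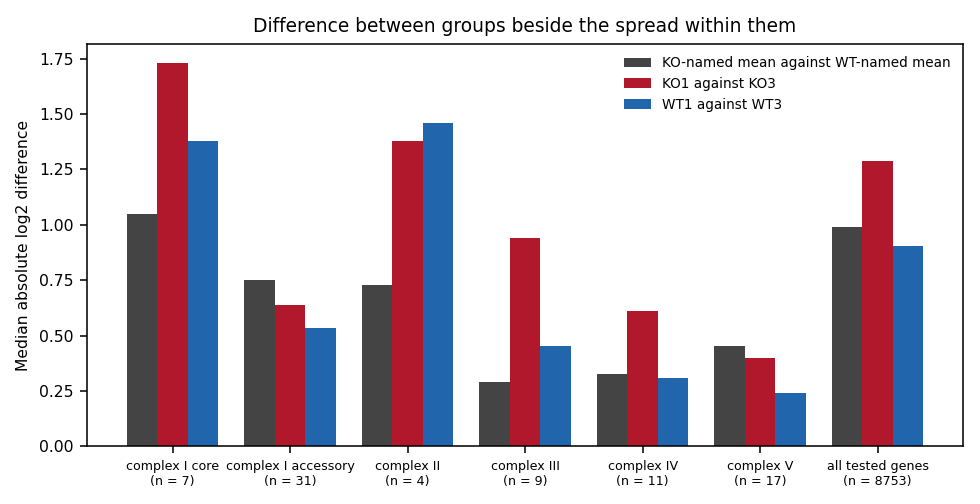
Median absolute log2 difference of TMM-scaled CPM between the mean of the KO-named and the mean of the WT-named libraries (grey), between KO1 and KO3 (red) and between WT1 and WT3 (blue), for each group of subunits and all tested genes. Of the groups drawn, the complex I accessory subunits (0.752) and complex V (0.454) have a difference between groups above both within-group differences, as have all complex I subunits together (0.781, not drawn). The grey bars compare means of 2 libraries and the others single libraries, which vary more, so their heights are unlike measures.

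Depth and length set how firmly a subunit was measured. Fewer than 100 counts were found for 7 and 6 subunits in KO1 and KO3 and for 3 and 5 in WT1 and WT3, or 8.75% and 7.5% against 3.75% and 6.25%, whereas 39.0% and 30.7% of tested genes were that low in KO1 and KO3 and 17.6% and 25.3% in WT1 and WT3. Transcript length was available for 78 subunits. The 39 shorter ones, with a median of 545 bases, had a median log2 fold change of 0.38, and the 39 longer ones one of 0.03. Of the 11 core and catalytic subunits of complexes I and III, 9 are among the longer ones, so length and role cannot be told apart here. The 2 among the shorter ones are Ndufs1, at 651 bases, and Uqcrc1, at 533 bases. These lengths are medians over annotated transcripts and can differ from that of the transcript expressed.

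Genes that build, regulate and feed the chain were read from 3 lists. Of 47 assembly factors 33 were tested, with a median log2 fold change of -0.39. Of 23 regulators of mitochondrial biogenesis 17 were tested, with a median of 0.57, and of 35 carriers and other inputs to the chain 23 were tested, with a median of -0.20. In edgeR, 0 genes of the 3 lists passed the adjusted threshold. At an unadjusted edgeR p of 0.05 the lists held 4, 1 and 1 genes (12.1%, 5.88% and 4.35%), all lower in the KO-named libraries. The share of all tested genes in that direction was 6.34%. These list genes passed the filter on low counts only through the WT-named libraries, so their direction was fixed by the filter. DESeq2 called 4 assembly factors lower, 1 regulator lower and 1 higher, and 1 carrier gene lower, against 7.26% of its tested genes in the lower direction.

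Several assembly factors had reads almost only in the WT-named libraries, and the 3 given here passed the filter on low counts only through them. Ndufaf3, an early assembly factor of complex I, had 0 counts in both KO-named libraries and 112 and 573 counts in WT1 and WT3, at least 172-fold lower against 3 counts over the group. Cox19, a copper-handling factor for complex IV, had 1 and 0 counts in KO1 and KO3 and 137 and 366 counts in WT1 and WT3, a WT-named to KO-named ratio of 379 (95% counting interval 67.7 to 15000.0). Atpaf1, a chaperone of the F1 head, had 1 and 0 counts in KO1 and KO3 and 70 and 184 counts in WT1 and WT3, a ratio of 191 (34.0 to 7590.0). Leaving out 1 library at a time gave lower bounds from 52.2 to 312 for Ndufaf3. The ratio of Cox19 was 167 without KO3 and 598 without WT1, and that of Atpaf1 was 84.2 without KO3 and 300.0 without WT1. Without KO1, where their KO-named counts are 0, Cox19 was at least 70.7-fold and Atpaf1 at least 35.7-fold lower. The edgeR adjusted p was 0.433 for each of the 3.

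The regulators showed a similar on-and-off pattern in single genes. Tfb1m, and Coq5 of the inputs, passed the filter on low counts only through the WT-named libraries. Their direction was thus fixed by the filter, and their folds do not test a difference between the groups. Tfb1m, the methyltransferase of mitochondrial ribosomal RNA, had 0 counts in both KO-named libraries and 215 and 49 counts in WT1 and WT3, at least 66.3-fold lower (at least 26.7-fold without WT1, adjusted p = 0.433 in edgeR). Tfeb, a regulator of lysosomal genes whose activity mTORC1 restrains, had 41.8 and 0.0587 CPM in KO1 and KO3 and 0.506 and 0.268 CPM in WT1 and WT3, so its level rests on KO1 (log2 fold change -2.58 without it). Ssbp1, the single-stranded DNA-binding protein of mitochondrial DNA, had 292 and 216 CPM in KO1 and KO3 and 52.9 and 173 CPM in WT1 and WT3. Of the inputs, Coq5, an enzyme of ubiquinone synthesis, had 2 and 1 counts in KO1 and KO3 and 356 and 80 counts in WT1 and WT3, a ratio of 109 (37.2 to 533), or from 43.5 without WT1 to 184 without KO1. Dhodh, which passes electrons from pyrimidine synthesis to ubiquinone, had 1.12 and 0 CPM in KO1 and KO3 and 14.0 and 0.644 CPM in WT1 and WT3, and overlapped. Cyb5r3, a cytochrome b5 reductase, had 0.448 and 17.1 CPM in KO1 and KO3 and 0.827 and 0.161 CPM in WT1 and WT3, and its log2 fold change of 4.13 became -0.14 without KO3.

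In the authors' deposited table of their own DESeq2 comparison, 0 of the 80 subunits had a q-value or a p-value of 0.05 or below. Of the 8753 tested genes, 979 had a p-value that low there, and the smallest q-value among them was 6.4e-11. Among the subunits the smallest values in the authors' deposited table were those of Ndufs7, with a p of 0.0581 and a q of 0.522. Although its header names WT before KO, the fold changes in the authors' deposited table had the sign of KO-named minus WT-named for 61 of 80 subunits and 82.7% of tested genes. Ndufa9, the one DESeq2 call, had the opposite sign there, and these fold changes are not used further.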

How the data were processed

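Per the labels' protocols, RNA came from ILC2 sorted out of adipose tissue, Trizol was used for extraction, and a Smart mRNA-seq kit made the libraries. The submitters' processing notes name mm10 as the genome build. The sorting gate, aligner, counting program, annotation and strandedness were not stated in any source read here. The values used are the estimated counts that the authors deposited for each gene and library. Between 20.0% and 21.6% of them in a library are fractional, and all were rounded. TPM were computed from these counts and the median length of the protein-coding GENCODE transcripts of each gene, a length rule chosen after values were seen. Per the file headers, the authors also deposited their own DESeq2 results, of which the p-value and q-value were used and the log2 fold change was read only to check its direction. A further 12 per-sample columns were not used, because the count columns are numbered 1 and 3 and the labels number libraries 1 and 2, so a column numbered 3 has a known group and no known sample.

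Differences were tested with the quasi-likelihood method of edgeR 4.0.16 (R 4.3.3) over the 4 libraries, with TMM scaling, the filterByExpr filter, which left 8753 genes, and Benjamini-Hochberg adjustment over them. The script was tested on simulated data. CPM use the TMM factors. The SE of a log2 fold change was taken as its absolute value divided by the root of F. Libraries of a group were compared first: chi-square over degrees of freedom was 475.7 for the KO-named pair and 282.6 for the WT-named pair, so all 4 entered as separate replicates. Alternatives used other scalings and filters, DESeq2 1.42.0, limma-voom (limma 3.58.1), the replicate number as a block, and each library left out. A count of 0 allows 0.138 to 0.224 CPM, the level of 3 counts, and such floors and intervals (95%, exact) cover counting error only.

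The 80 subunits and the marker and pathway lists were chosen with earlier results of these data known. Full values are given for 30 subunits by rule: the 3 with the highest mean CPM in complexes I, III, IV and V, all of complex II, Cycs, the largest and smallest log2 fold change of each complex, every p of 0.05 or below, every subunit with at most 10 counts in both libraries of a group, and the isoform pairs; each pathway list gave the 3 genes with the smallest p. All 80 subunits were matched by Entrez number to RefSeq GRCm38.p6, the assembly that mm10 names, which gave positions and promoters, and 78 by the same number to GENCODE transcripts of that assembly. For 1 subunit no value is given by name, and the plots that name subunits leave it out.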

Additional observations from a re-analysis of the deposited data

How the results depend on the processing

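The genes named by rule or given a fold change were refitted under RLE size factors, library size alone, scaling without ribosomal protein genes, no low-count filter, a mean of at least 4 CPM (which removes Ndufb4b, Atpaf1 and Tfb1m), DESeq2, limma-voom, the replicate block and each library left out. Of 513 such refits of 43 genes, 480 kept direction and side of the threshold, 9 kept direction and passed the adjusted threshold, and 24 changed sign. The edgeR count of 0 genes called became 952 in DESeq2 (1 subunit, Ndufa9), 201 in limma-voom, 25 with the replicate block (0 subunits) and 0 to 7 with 1 library left out, and the cause was not tested; at an unadjusted p of 0.05 edgeR held 859 genes. Same-numbered libraries did not deviate together (correlation -0.0037), so the numbers are not treated as pairs, and no complex median moved beyond its replicate spread under the block. By library size alone the medians were -0.078 for complex I, -0.12 for complex II, -0.41 for complex III, 0.0026 for complex IV and 0.11 for complex V, and the median of all tested genes, 0.05 with TMM and 0.13 with RLE, was -0.28. With 1 library left out, the medians ran from -0.034 to 0.62 for complex I, -0.66 to 0.68 for complex II, -1.13 to 0.22 for complex III, 0.23 to 0.44 for complex IV and 0.30 to 0.63 for complex V; the single library left in a group is then assumed to vary like the others. Signs changed for Ndufa13 (0.0035 with RLE), Sdhb (0.052 with RLE, 0.043 with the replicate block), Cox6b1 (-0.037 by library size), Cox8a (-0.25 by library size) and Cox7a2l (-0.31 by library size, -0.052 with no filter, -0.0063 with the block). Leave-one-out ranges that crossed 0 were Ndufa13 (-0.67 to 0.50), Sdhb (-0.50 to 0.71), Sdhc (-0.86 to 1.16), Cox4i1 (-1.21 to 0.31), Cox6a1 (-0.67 to 0.078), Cox6b1 (-0.038 to 0.56), Cox7a2l (-0.36 to 0.34), Cox8a (-0.16 to 0.39), Atp5g1 (-0.86 to 0.23), Cyb5r3 (-0.14 to 5.70), Tfeb (-2.58 to 6.72), Rptor (-5.58 to 0.39). Counting Ndufa4 with complex IV, leaving out the Ndufb4 family, and the counts of non-overlapping subunits by library size, by the total outside ribosomal proteins (22 above, 6 below), by TPM (19 above, 15 below) and by TPM with the longest in place of the median protein-coding transcript (17 above, 18 below) were chosen after seeing the data, and so was the count over the 78 subunits with a length, since these TPM counts place Ndufb4b and Ndufb4c by the library factor alone. Depth limits Ndufa9, Ndufs1, Ndufb4b, Ndufb4c and Uqcrc1, the subunits with 10 or fewer counts in a library.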
